A study of Mus musculus with 9 samples.

Results

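The nuclear subunits of respiratory complexes II, III, IV and V were examined by RNA sequencing in cultured mouse primary macrophages. The members were the protein-coding genes named Sdha to Sdhd, Cyc1 and Cycs, or with a symbol that begins with Uqcr, with Cox followed by a digit from 4 to 8 and a letter, or with Atp5. The rule found 49 of 34866 genes in the deposited tables: 4 of complex II, 9 of complex III, 18 of complex IV, 17 of complex V, and cytochrome c (Cycs). A further 8 rows with matching names were pseudogenes, all at 0 in every sample, and were set aside. The name rule also takes in a few genes that are not structural subunits in the strict sense, such as Cox7a2l, an assembly factor of respiratory supercomplexes.

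Culture medium was alpha-MEM supplemented with serum and L929-conditioned medium, a source of macrophage growth factor, and no genetic change is given in the labels. One group was kept in standard oxygen for 7 days. The acute hypoxia group was held in standard oxygen and then given 3 hours of 1% oxygen, while chronic hypoxia meant 7 days of 1% oxygen. There were 3 biological replicates per group, 9 samples in all, and values are TPM, the length-corrected share of each gene in a library's transcripts, which keep no record of depth. The study's title concerns metabolic adaptation of macrophages to limited oxygen. Here the question was how the transcripts of the respiratory chain downstream of complex I compared between the 3 oxygen conditions.

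Complex II oxidises succinate and passes the electrons to ubiquinone, complex III passes them on to cytochrome c, and complex IV transfers them to oxygen. The proton gradient that complexes III and IV help to build drives complex V, the ATP synthase. Complex II is encoded wholly in the nucleus, whereas complexes III, IV and V each combine nuclear subunits with catalytic or membrane subunits encoded in the mitochondrial genome. Several complex IV subunits have tissue-specific isoforms, and Cox4i2 is known as an alternative to Cox4i1 that can be induced by low oxygen.

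The labelled cell type was checked against its markers. The 6 macrophage markers summed to between 55364 and 73263 TPM in every library, nearly all of it Lyz2, at 52793 to 70403 TPM. Mean levels in standard oxygen, acute and chronic hypoxia were 542, 531 and 413 TPM for Adgre1 and 470, 470 and 699 for Csf1r. Those of Itgam were 535, 551 and 760 TPM, of Cd68 1309, 1103 and 1309, and of Fcgr1 40.9, 40.9 and 30.2. Adgre1 was lowest, at 253 TPM, in a chronic library. The 5 fibroblast and 4 dendritic cell markers were all under 1 TPM in every library. The 4 osteoclast markers summed to 26.7 to 37.5 TPM in standard oxygen, 21.5 to 57.7 under acute hypoxia and 29.3 to 51.7 in chronic hypoxia, almost all of it Ctsk and Atp6v0d2, with Calcr at 0 in all. Of 3 erythroid markers Hbb-bs and Hbb-bt were at 0 in all libraries, and Hba-a1 reached 1.25 TPM in the code Z library of standard oxygen (the sample codes are described below). The 8 neutrophil markers summed to 898 to 1595 TPM in standard oxygen, 941 to 1910 under acute hypoxia and 260 to 585 in chronic hypoxia, and 4 of the 8 were under 1 TPM in all libraries. That sum was nearly all S100a8, which also occurs in macrophages, at 895 to 1593, 937 to 1906 and 258 to 582 TPM. Ngp was also lower in chronic hypoxia, at 0.368 to 3.79, 0.221 to 3.81 and 0 to 0.208 TPM. Camp was at 0.133 to 1.65, 0.143 to 1.44 and 1.55 to 2.03 TPM. Ltf was above 0 only in the code Z libraries of standard oxygen (0.214 TPM) and acute hypoxia (1.49 TPM). The 3 proliferation markers summed to 30.7 to 61.1, 33.9 to 79.4 and 71.2 to 143 TPM in the same order. All 3 were highest in the code Z library of each group, as was Ctsk, while Atp6v0d2 was lowest there. The lowest Adgre1 level was also in a code Z library. The part of these differences in the results was not tested. In bulk samples, fewer cells of a type and less RNA per cell cannot be told apart. The sample descriptions share 3 sets of digits across the groups, here called codes X, Y and Z, whose meaning is not stated. On the deposited scale, 43 members were above 0 in all samples. Code Z was the highest of its group for 27 of them in standard oxygen, 27 under acute hypoxia and 32 in chronic hypoxia. The typical gene was also highest in code Z. Library factors from the median of ratios, described below, were 0.9045, 0.9438 and 1.038 for X, Y and Z in standard oxygen. They were 0.9361, 0.9485 and 1.045 under acute hypoxia and 1.028, 1.079 and 1.162 in chronic hypoxia.

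Transcripts of these subunits were abundant, and on the deposited scale their levels lay close together across the 3 oxygen conditions. Of the 49 members, 43 were above 0 in all 9 samples, and the median member differed by 1.33-fold between its highest and lowest library. The span stayed under 1.5-fold for 29 of the 43 and under 2-fold for 41. The 2 exceptions were Uqcr11 and Cox7a1. Mean levels in standard oxygen ran from 6.72 TPM for Atp5s to 1007 TPM for Atp5b, the catalytic beta subunit of the ATP synthase.

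Summed over the 49 members, the level was 12361 ± 512 TPM in standard oxygen, 12236 ± 682 under acute hypoxia and 12169 ± 1331 under chronic hypoxia (SD, n = 3). The 3 means lay closer together than the libraries within a group. The chronic and standard sums differed by -1.56% (exact permutation test, two-sided, p = 0.8), and 3 samples against 3 cannot give a p below 0.1. These sums depend on how libraries are scaled to each other. The sums were also taken after rescaling all 9 libraries by the median of ratios, which sets the typical gene to no change. They were then 12867 ± 377, 12534 ± 372 and 11146 ± 538 TPM, and the chronic sums lay below all others. The chronic sum then differed from standard oxygen by -13.4% and from acute hypoxia by -11.1% (exact permutation test, two-sided, p = 0.1 for each, the smallest possible). For complexes II, III, IV and V the rescaled differences from standard oxygen were -14.0%, -11.7%, -15.1% and -12.4%, each with the same p.

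**Figure D1:**
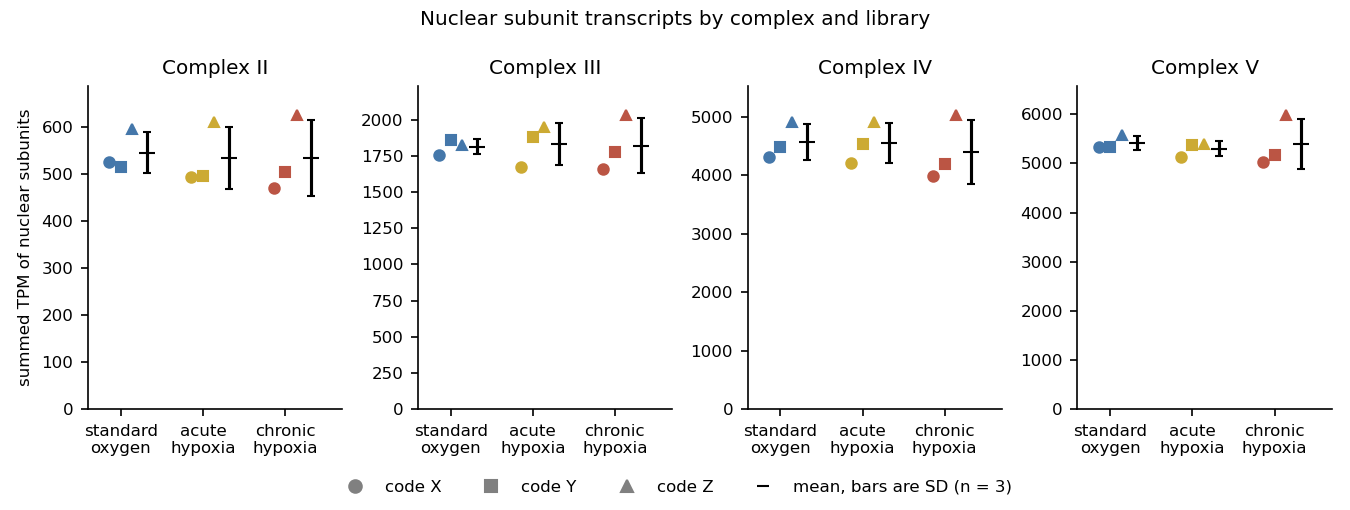
Summed deposited TPM of the nuclear subunits of complexes II, III, IV and V (vertical axes, from 0) in the 3 oxygen groups. Points are libraries, with the shape giving the sample code, and black marks are the mean ± SD (n = 3); within each panel the groups overlap, and complex IV has means of 4568, 4546 and 4402 TPM.

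No member passed the unpaired test in any comparison. Pairing the samples by code called 1 of 44 in chronic hypoxia against standard oxygen (Cox7a2l), against 18.4% of all genes. It called 2 of 44 in chronic against acute hypoxia (Cox7a2l and Cyc1), against 15.5% of all genes, described with those genes. Pairing and rescaling together called 3 and 2 members, all lower and without Cox7a2l, against 5.92% and 5.07% of all genes called lower. In the unpaired test, of 44 tested members, 0 were called in acute hypoxia against standard oxygen, 0 in chronic hypoxia against standard oxygen and 0 in chronic against acute hypoxia (limma, Benjamini-Hochberg adjusted p under 0.05), and 0 had an unadjusted p under 0.05. Over all genes tested the shares called were 0.0273%, 2.69% and 0.695%. The other 5 members did not reach a mean of 1 TPM. The 95% confidence interval of the log2 fold change lay within 0.5 of 0 on both sides for 37, 32 and 31 of 44 members. The same held for 44.3%, 25.7% and 27.9% of all genes, which were not matched to the members by level. After rescaling the 6 libraries of each comparison by the median of ratios, it held for 38, 22 and 25 members. Among all genes it then held for 47.8%, 33.9% and 35.1%. The unadjusted limma p was then under 0.05 for 0, 10 and 8 members, none of them higher. It was so for 879 of 10987, 2149 of 11067 and 1927 of 11087 genes.

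The scale of the values matters for the direction. In chronic hypoxia the median gene was 0.16 higher than in standard oxygen and 0.14 higher than in acute hypoxia on the log2 scale, whereas the median member stood at -0.02 and -0.01. Rescaling within each comparison moved the median member to -0.21 and -0.17. Members below 0 then numbered 41 and 38 of 44, against 27 and 23 on the deposited scale. In acute hypoxia the medians were -0.02 for members and 0.01 for all genes, and 26 of 44 members were below 0 (30 after rescaling). The chronic and acute comparisons share the standard oxygen or the acute libraries, so they are not independent of each other.

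**Figure D2:**
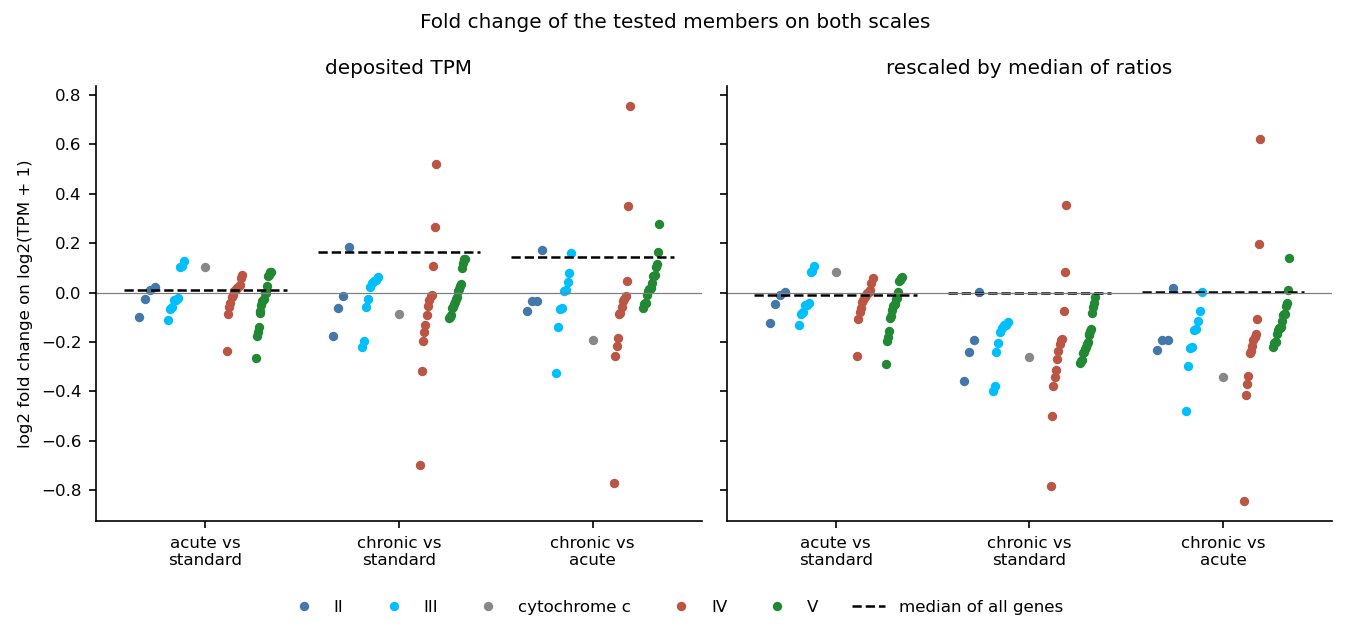
Log2 fold change of the 44 tested members (vertical axis, on log2(TPM + 1)) in the 3 comparisons, on deposited TPM and after median-of-ratios rescaling. Each point is a member, coloured by complex, and dashed lines are the median of all tested genes; in chronic against standard oxygen 27 members lie below 0 on the deposited scale and 41 after rescaling.

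Counts of members whose groups did not overlap showed the same dependence. On the deposited scale 1 member lay wholly above (Uqcrh) and 2 wholly below (Cox6a1 and Cox8a) standard oxygen in chronic hypoxia, where 24.2% of all genes lay above and 5.39% below. After rescaling 0 lay above and 17 below, against 12.6% and 13.5% of all genes. For chronic against acute hypoxia the counts were 2 above (Atp5g2 and Uqcrh) and 1 below (Cox8a) on the deposited scale, where 22.3% and 5.5% of genes did so, and 0 above and 17 below after rescaling (11.4% and 13%). In acute hypoxia against standard oxygen 0 lay above and 1 below (Atp5o), against 7.63% and 4.85% of all genes.

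Complex II, the succinate dehydrogenase, had 4 of 4 members tested and none called. Its summed level was 545 ± 43.4 TPM in standard oxygen, 533 ± 66.0 in acute and 533 ± 80.8 under chronic hypoxia (SD, n = 3). Sdha carries the flavin and Sdhb the iron-sulphur clusters, while Sdhc and Sdhd anchor the complex in the membrane.

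Sdha was at 138, 134 and 136 TPM in the X, Y and Z libraries of standard oxygen, 116, 137 and 150 under acute hypoxia and 104, 135 and 158 in chronic hypoxia. The means were close while the spread between libraries was wider in both hypoxia groups, and the groups overlapped. Sdhb stayed between 108 and 126 TPM in all 9 libraries. Sdhd was at 102 ± 5.26, 104 ± 15.8 and 117 ± 11.9 TPM (SD, n = 3), with a log2 difference of 0.18 between chronic hypoxia and standard oxygen (limma adjusted p = 0.365) that became 0.00 after rescaling.

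Sdhc was at 166, 154 and 242 TPM in standard oxygen, 170, 138 and 214 under acute hypoxia and 151, 131 and 217 in chronic hypoxia. The code Z library was the highest of every group, and the groups overlapped. Within each code, chronic hypoxia was below standard oxygen, and the log2 difference was -0.18 (limma adjusted p = 0.705). With the code as a block and the libraries rescaled it was -0.36 ± 0.06 (SE, limma adjusted p = 0.0335), and with the block alone the adjusted p was 0.108.

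Complex III had 9 of 9 members tested and none called, with summed levels of 1812 ± 51.1, 1833 ± 146 and 1821 ± 190 TPM (SD, n = 3). Uqcrc1 and Uqcrc2 form its core, Uqcrfs1 is the Rieske iron-sulphur protein and Cyc1 is the haem-bearing cytochrome c1. Uqcrh was among the steadiest members, at 276 ± 3.32, 270 ± 9.22 and 286 ± 5.73 TPM. Uqcrfs1 had the lowest log2 fold change of the complex in acute hypoxia against standard oxygen (-0.11) and Uqcrq the highest (0.13), and neither passed the test. Uqcr11 ranged from 155 to 371 TPM across the chronic libraries alone.

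Cyc1 was at 102, 91.4 and 106 TPM in standard oxygen, 97.7, 99.3 and 127 under acute hypoxia and 77.7, 74.7 and 107 in chronic hypoxia. The X and Y libraries of chronic hypoxia were the lowest of the 9, and the Z library lay among the others. Chronic against acute hypoxia gave a log2 difference of -0.32 (limma adjusted p = 0.347). With the code as a block it fell by 0.32 ± 0.07 (SE, limma adjusted p = 0.0406), and with rescaling as well by 0.48 ± 0.07 (adjusted p = 0.0253). Against standard oxygen the blocked value of -0.22 did not pass (adjusted p = 0.175).

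Cytochrome c (Cycs), the mobile carrier between complexes III and IV, was present at 22.0 ± 2.50, 23.7 ± 1.60 and 20.8 ± 3.82 TPM. The log2 differences were 0.10 under acute hypoxia and -0.09 in chronic hypoxia against standard oxygen, and neither passed the test. It shares 26.1% of its 75-base stretches with other listed genes, the most of any member, so its level is uncertain.

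Complex IV, the cytochrome c oxidase, held the isoform families. Of its 18 members 13 were tested and none was called, and Cox6b2, Cox7b2, Cox8b and Cox8c were at 0 in all 9 libraries. Cox4i1, at chromosome 8, 120668222 to 120674207 of GRCm38, was the most abundant of the complex IV members at 763 ± 45.2 TPM in standard oxygen, 755 ± 67.0 under acute hypoxia and 744 ± 152 under chronic hypoxia (SD, n = 3). About 11.6% of its 75-base stretches are shared with its neighbour Emc8. Its X, Y and Z libraries were at 712, 796 and 783 TPM, then 693, 747 and 826, then 651, 662 and 920. The groups overlapped, and the log2 differences against standard oxygen were -0.02 and -0.05.

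Cox4i2, at chromosome 2, 152754173 to 152765037, was listed at 0 in all 3 standard oxygen libraries. It was at 0.304, 1.15 and 0 TPM under acute hypoxia and at 0.708, 0 and 0.511 in chronic hypoxia. At most it made up 0.154% of the Cox4i transcripts of a library. It did not reach the level required for testing, and with TPM alone the reads behind these values are unknown.

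The other families were likewise dominated by 1 isoform in most cases. Cox6a1 held nearly all Cox6a transcripts, on average 99.7%, 99.7% and 99.9% in standard oxygen, acute and chronic hypoxia. Cox6a2, the muscle isoform, was at 2.82, 3.00 and 0 TPM in standard oxygen, 3.03, 3.39 and 0 under acute hypoxia and 0.786, 1.01 and 0 in chronic hypoxia. It was listed at 0 in each code Z library, and its log2 difference of -0.70 between chronic hypoxia and standard oxygen had an interval from -2.14 to 0.75. Without the code Z libraries, an alternative chosen after the data were seen, the difference was -1.05 (limma adjusted p = 0.0216). That fit held only the X and Y libraries and called 21.1% of all genes. It left out the very libraries where Cox6a2 was at 0, so its p cannot serve as support.

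Cox7a1, the heart and muscle isoform of Cox7a, was at 4.90, 9.25 and 11.5 TPM in standard oxygen, 2.03, 10.2 and 12.7 under acute hypoxia and 9.73, 14.4 and 12.5 in chronic hypoxia. Its log2 difference of 0.52 between chronic hypoxia and standard oxygen was the highest of any member in that comparison and did not pass (limma adjusted p = 0.348). Cox8a was at 716 ± 42.7, 728 ± 53.5 and 642 ± 54.8 TPM, and all 3 chronic libraries lay below those of both other groups.

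Cox7a2l, Cox5a and Cox7b stood out in fits with the code as a block; the first 2 were chosen for description after their values had been seen. Cox7a2l, at chromosome 17, 83501918 to 83517330, was at 245, 256 and 329 TPM in standard oxygen, 230, 236 and 316 under acute hypoxia and 298, 316 and 379 in chronic hypoxia. Within every code the chronic library was the highest. The log2 difference from standard oxygen was 0.26 (limma adjusted p = 0.358), and with the code as a block it rose by 0.26 ± 0.06 (SE, adjusted p = 0.0495). From acute hypoxia it was 0.35 (adjusted p = 0.278), or 0.35 ± 0.07 with the block (adjusted p = 0.0322). With the block and rescaling together the values were 0.08 (adjusted p = 0.409) and 0.19 (adjusted p = 0.134), so the call rests on the deposited scale. About 13.4% of its 75-base stretches are shared with another listed gene.

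In the same blocked fit on the deposited scale, 1 of 44 members was called in chronic hypoxia against standard oxygen and 2 of 44 in chronic against acute hypoxia, against 18.4% and 15.5% of all genes. In acute hypoxia against standard oxygen it called 0 of 44, against 0.71% of all genes. Block and rescaling together called 3 and 2 members, all lower, against 5.92% and 5.07% of all genes called lower.

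Cox5a, at chromosome 9, 57521274 to 57532426, was at 312, 302 and 376 TPM in standard oxygen, 288, 302 and 359 under acute hypoxia and 220, 259 and 320 in chronic hypoxia. Within each code the chronic library was the lowest. Its log2 difference between chronic hypoxia and standard oxygen was -0.32 (limma adjusted p = 0.307), and the blocked and rescaled fit gave a fall of 0.50 ± 0.08 (SE, adjusted p = 0.0311). Against acute hypoxia that fit gave -0.41 ± 0.07 (adjusted p = 0.0331). With the block alone the adjusted p was 0.0615 and 0.0744.

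Cox7b, at chromosome X, 106015700 to 106022450, was at 138, 137 and 188 TPM in standard oxygen, 152, 150 and 163 under acute hypoxia and 120, 119 and 165 in chronic hypoxia. In chronic hypoxia against standard oxygen the blocked and rescaled fit gave a fall of 0.38 ± 0.06 (SE, limma adjusted p = 0.0278), against -0.20 and an adjusted p of 0.566 without either step. With the block alone the value was -0.20 ± 0.06 and did not pass (adjusted p = 0.0811).

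**Figure D3:**
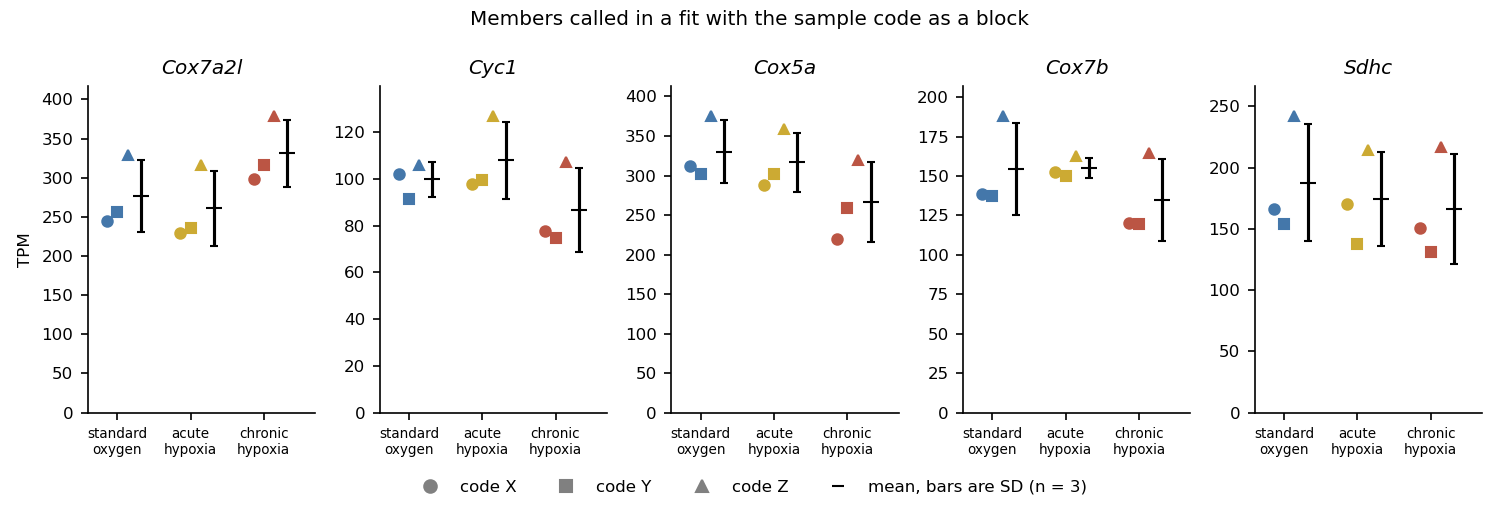
TPM (vertical axes, from 0) of Cox7a2l, Cyc1, Cox5a, Cox7b and Sdhc in the 3 oxygen groups, with a point for each library, its shape giving the sample code, and black marks for the mean ± SD (n = 3). The code Z library is the highest of its group for all 5 genes, and the groups overlap for each.

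Promoters of Cox5a and Cox7b are shown because both fell in the blocked and rescaled comparison of chronic hypoxia with standard oxygen. Sdhc, the other member called in that fit, is named only. Each is the 250 bases before the RefSeq start on GRCm38.p6, 5′ to 3′ on the gene's strand, Cox5a at chr9:57520982-57521231 (plus strand) and Cox7b at chrX:106015450-106015699 (plus strand). Capitals mark ACGTG, the core of the hypoxia response element.
Cox5a: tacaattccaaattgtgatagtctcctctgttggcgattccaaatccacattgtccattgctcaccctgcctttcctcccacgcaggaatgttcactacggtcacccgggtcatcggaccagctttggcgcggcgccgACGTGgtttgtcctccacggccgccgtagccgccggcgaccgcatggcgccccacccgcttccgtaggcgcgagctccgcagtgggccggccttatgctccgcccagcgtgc
Cox7b: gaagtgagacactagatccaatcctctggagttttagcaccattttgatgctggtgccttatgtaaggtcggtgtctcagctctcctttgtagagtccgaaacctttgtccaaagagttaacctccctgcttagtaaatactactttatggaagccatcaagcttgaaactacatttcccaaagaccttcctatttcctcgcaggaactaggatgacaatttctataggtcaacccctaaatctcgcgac
The Cox5a window held ACGTG once, at position -112 from the start, and the Cox7b window held none of the 3 motifs searched. Each motif was sought on both strands in 300 bases, from 250 before to 50 after the start, for the 37 of 49 members with a RefSeq promoter. A gene was counted once, if any of its promoters held the motif, and the 37 include untested members such as Cox8b. ACGTG was in 13 of 37 (35.1%), in 30.0% of the tested genes and in 21.8% of all genes with a promoter. The NRF1 palindrome, GCGCA followed directly by TGCGC, was in 4 of 37 (10.8%, against 2.60% and 1.07%). CCGGAA, an ETS core that GABPA binds, was in 15 of 37 (40.5%, against 34.1% and 16.7%). These are matches of letters within a window and say nothing of binding.

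Complex V, the ATP synthase, had 17 of 17 members tested and none called, with sums of 5415 ± 144, 5300 ± 147 and 5393 ± 512 TPM (SD, n = 3). Atp5b was at 1007 ± 126, 987 ± 135 and 1005 ± 260 TPM, and its Z library was the highest of each group. Atp5o, which joins the catalytic head to the stator, was the one member wholly below standard oxygen in acute hypoxia, at 158, 149 and 157 against 171, 162 and 186 TPM, with a log2 difference of -0.16 (limma adjusted p = 0.856). The widest acute difference was -0.27 for Atp5g2, whose standard oxygen libraries were at 73.9, 48.6 and 54.2 TPM and whose acute libraries were at 49.6, 50.7 and 44.0.

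The 3 genes for the proton-carrying c subunit, Atp5g1, Atp5g2 and Atp5g3, encode the same mature protein. Atp5g3 held 57.3%, 58.8% and 57.5% of their summed TPM in standard oxygen, acute and chronic hypoxia, and Atp5g1 32.7%, 33.2% and 33.8%. Atp5g2 held the rest, 10.1% ± 2.40, 7.96% ± 0.896 and 8.70% ± 1.53 (SD, n = 3). Atp5g1 and Atp5g2 share 7.33% and 7.81% of their 75-base stretches with other genes.

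The sample codes moved with these values. On the deposited scale, 31 of 44 members were lower in chronic hypoxia than in standard oxygen in the code X pair, 27 in the Y pair and 18 in the Z pair, and the medians were -0.09, -0.05 and 0.02. The counts were 41, 40 and 32 after rescaling. In 12 of 44 members the X and Y pairs were lower and the Z pair higher on the deposited scale, against 6.85% of all genes. For chronic against acute hypoxia 17 of 44 did so, against 7.82% of all genes. After rescaling these were 9 of 44, against 10.3% of all genes, and 10 of 44, against 11.0%. All 3 pairs were then lower in 30 of 44 members (27.8% of all genes) and in 26 of 44 (26.5%). On the deposited scale that held for 10 of 44 (12.6%) and 7 of 44 (12.9%). Without the Z libraries, 3 members were called in chronic hypoxia against standard oxygen and 4 in chronic against acute hypoxia on the deposited scale, against 21.1% and 16.3% of all genes. After rescaling 14 and 5 were called, all lower, against 8.23% and 5.62% of all genes lower.

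**Figure D4:**
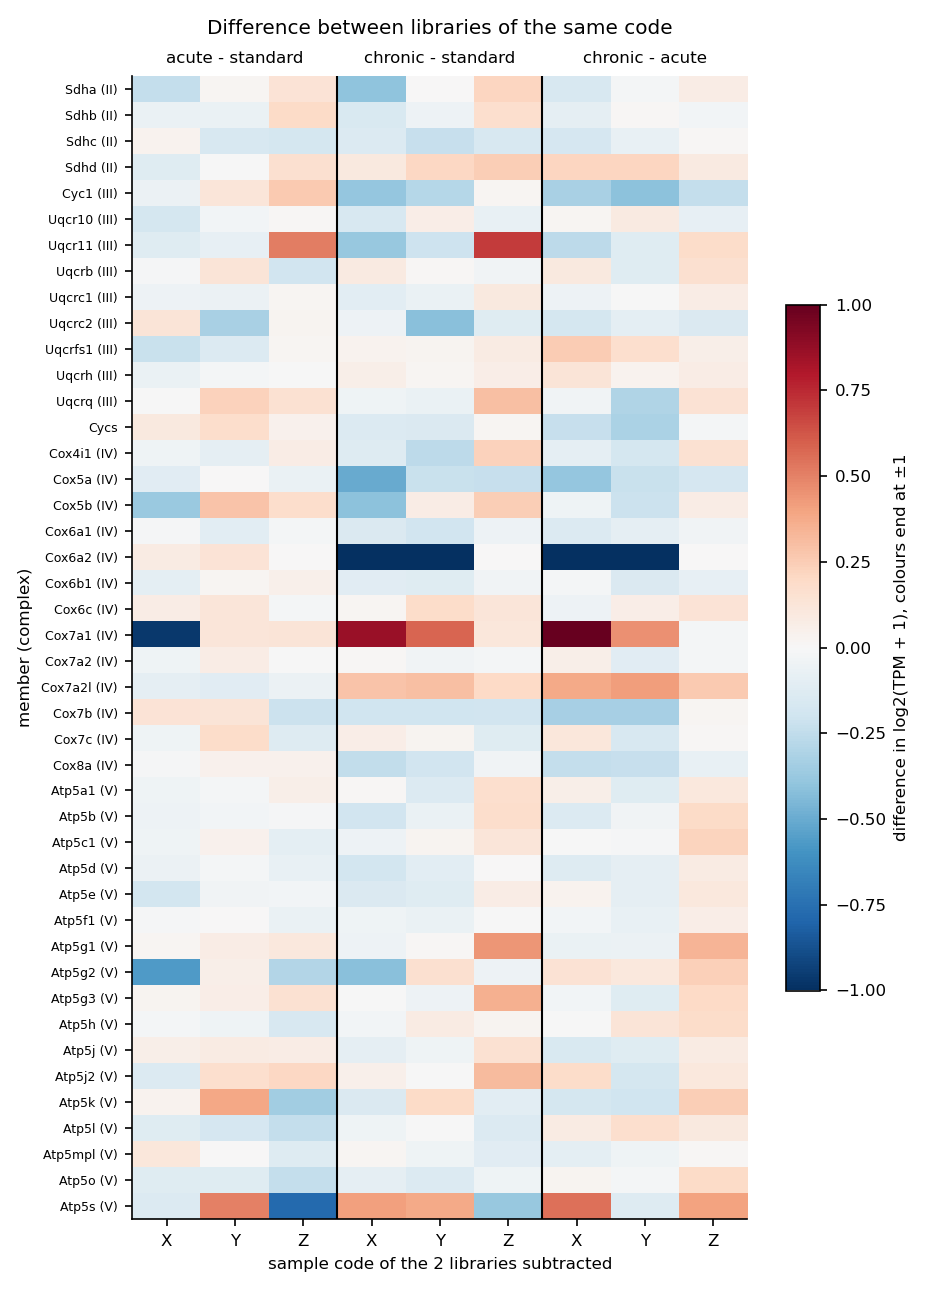
Difference in log2(TPM + 1) between libraries of the same code (columns X, Y and Z) for the 44 tested members (rows, by complex) in the 3 comparisons, with colours ending at ±1. In the chronic minus standard block the X and Y columns hold 31 and 27 lower members and the Z column 18. Values are on the deposited scale, where 30.7%, 29.8% and 32.9% of all genes were lower in X, Y and Z.

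The mitochondrial genome encodes 6 further subunits of complexes III, IV and V. In chronic hypoxia against standard oxygen 0 of 6 passed the test, 5 had an unadjusted p under 0.05, and the median log2 fold change was -0.74 (limma), where 2.69% of all genes were called. Rescaling alone called 2 of 6 lower (mt-Co1 and mt-Atp6), where 2.11% of all genes were called and 118 of 11067 were called lower. All 6 then had an unadjusted p under 0.05, and the median was -0.92. Against acute hypoxia rescaling alone called 0 of 6 and 0.731% of all genes. With the code as a block 6 of 6 fell against standard oxygen, where 18.4% of genes were called and 365 of 11067 were called lower. Against acute hypoxia 4 of 6 fell (mt-Co1, mt-Co2, mt-Atp6 and mt-Atp8), where 15.5% of genes were called and 379 of 11087 were called lower. In acute hypoxia the median was 0.01 and none was called in either fit. mt-Co1, the catalytic subunit of complex IV, was at 14261, 12893 and 15444 TPM in standard oxygen, 14064, 12195 and 15060 under acute hypoxia and 7878, 7049 and 10028 in chronic hypoxia. Every chronic library lay below every other.

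Ratios within a library do not depend on how libraries are scaled to each other; the 5 below were chosen with the values known. The summed mt-Co1, mt-Co2 and mt-Co3 stood at 6.47 ± 0.498 times the nuclear complex IV members in standard oxygen, 6.35 ± 0.685 in acute and 4.15 ± 0.457 under chronic hypoxia (SD, n = 3). For mt-Atp6 and mt-Atp8 over nuclear complex V the ratio was 1.19 ± 0.139, 1.24 ± 0.119 and 0.693 ± 0.0867. For mt-Cytb over nuclear complex III it was 0.800 ± 0.197, 0.795 ± 0.184 and 0.539 ± 0.0800. All 3 ratios were lower in chronic hypoxia than in either other group with no overlap and in 3 of 3 code pairs (exact permutation test, two-sided, p = 0.1, the smallest possible, and 0.15 adjusted over 15 tests).

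Cox7a2l over Cox7a2 was 1.31 ± 0.111, 1.23 ± 0.144 and 1.59 ± 0.0913 (SD, n = 3), higher in chronic hypoxia in 3 of 3 code pairs, with the same exact p of 0.1 and adjusted value of 0.15.

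**Figure D5:**
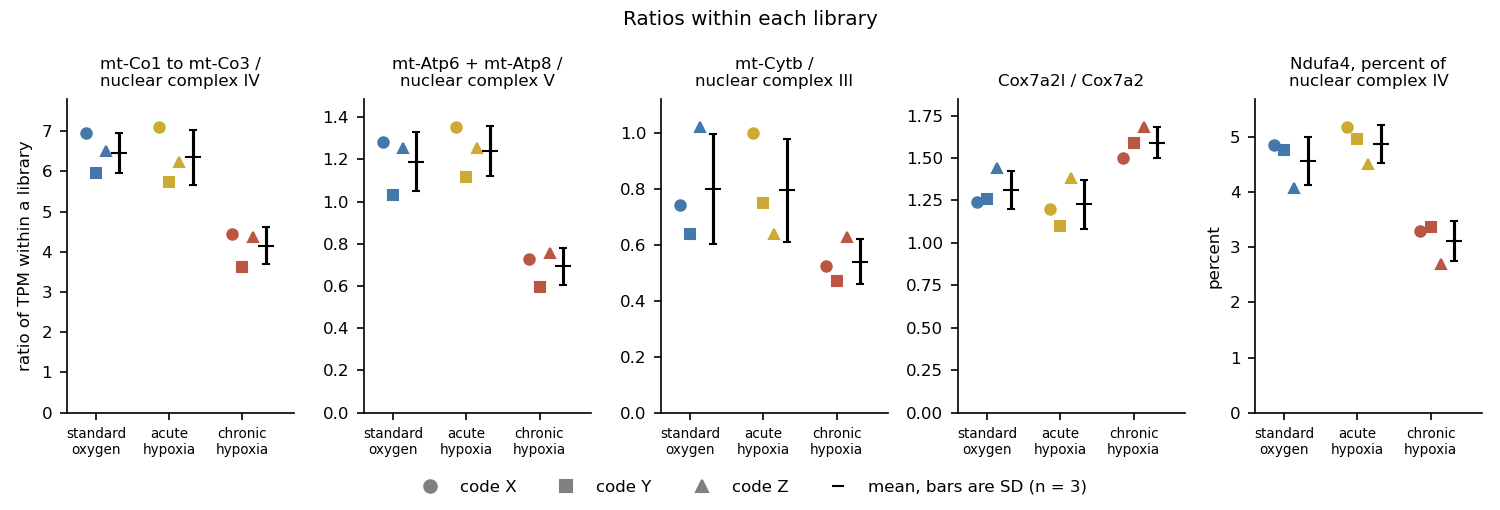
Ratios of TPM within each library (vertical axes, from 0) in the 3 oxygen groups: mitochondrial over nuclear subunits of complexes IV, V and III, Cox7a2l over Cox7a2, and Ndufa4 as a percent of the nuclear complex IV members. Points are libraries, shapes the sample codes and black marks the mean ± SD (n = 3); the chronic libraries lie apart from both other groups in all 5 panels.

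Among 7 regulators of cytochrome c oxidase under low oxygen, 6 were tested. Ndufa4, a complex IV subunit once assigned to complex I, was called lower in both chronic comparisons, and none was called higher. Of all genes 2.69% were called against standard oxygen and 0.695% against acute hypoxia. Ndufa4 was at 210, 213 and 200 TPM in standard oxygen, 218, 225 and 221 under acute hypoxia and 132, 141 and 136 in chronic hypoxia. The chronic libraries lay apart from the rest. It fell by 0.61 ± 0.09 against standard oxygen (SE, limma adjusted p = 0.0293) and by 0.70 ± 0.08 against acute hypoxia (adjusted p = 0.0428). Of 13 alternatives other than leaving out 1 library, 11 kept the call in each comparison (limma adjusted p up to 0.172 and 0.0568). The 13 include fits without the code Z libraries, chosen after seeing the data. Leaving out 1 library kept the call in 2 of 6 fits (without the code Z library of either group) and in 1 of 6 (without chronic replicate 3), with adjusted p up to 0.165 and 0.236 and log2 differences of -0.63 to -0.58 and -0.72 to -0.67. As a percent of the nuclear complex IV members it stood at 4.56% ± 0.429, 4.88% ± 0.344 and 3.12% ± 0.365 (SD, n = 3), with no overlap between chronic hypoxia and either other group (exact permutation p = 0.1, the smallest possible). Ndufa4l2 was at 0 in all libraries.

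Higd1a, a small protein that binds complex IV, was at 23.9 ± 2.36, 53.0 ± 15.8 and 45.0 ± 11.0 TPM (SD, n = 3). It did not pass in the unblocked fit (limma adjusted p = 0.208 under acute hypoxia and 0.0778 in chronic hypoxia against standard oxygen). With the code as a block it rose by 1.08 ± 0.12 (SE, adjusted p = 0.0482) and by 0.86 ± 0.12 (adjusted p = 0.0194). With rescaling as well the adjusted p was 0.0654 and 0.0364.

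Of 43 listed assembly factors 39 were matched and tested, and 0 were called in any comparison (limma). With the code block Cox16 and Cmc2, which act in complex IV assembly, rose in chronic hypoxia against standard oxygen, and Tmem70, which acts in complex V assembly, fell against acute hypoxia. These are 2 and 1 of 39, in fits that called 18.4% and 15.5% of all genes. The first fit called 1674 of 11067 genes higher and the second 379 of 11087 lower. With rescaling as well Cox16 and Cmc2 were not called (adjusted p = 0.142 and 0.131), and Surf1 was called lower in chronic hypoxia against standard oxygen (adjusted p = 0.0410). Against acute hypoxia that fit called 4 of 39 lower, Tmem70, Cox17, Sdhaf2 and Sco2 (adjusted p from 0.0262 to 0.0406), where 5.07% of all genes were lower. Of 9 transcription factors for nuclear subunits 8 were tested and none was called. With the block Gabpa rose in chronic hypoxia against standard oxygen (0.41 ± 0.08, SE, adjusted p = 0.0322), and Tfam rose against acute hypoxia (0.65 ± 0.14, adjusted p = 0.0386). Neither was called when the libraries were also rescaled.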

How the data were processed

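RNA was sequenced in 9 mouse macrophage samples, 3 per oxygen condition, from Illumina TruSeq mRNA libraries read as paired ends of 75 bases, per the labels' protocols. The authors deposited TPM values per gene in 3 tables, 1 per pair of groups; each sample's values were identical in both tables that held it, and each column summed to 1000000. FastQC, STAR, featureCounts and GRCm38 are named in the submitters' processing notes, without versions or order; the annotation and the TPM formula are not given in the sources used here. Depth is unknown, so the replicate spread is the only measure of error.

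Each comparison was fitted over all genes with limma 3.58.1 in R 4.3.3 (lmFit, eBayes with trend, two-sided) on log2(TPM + 1), for genes with a mean of at least 1 TPM over its 6 samples, with Benjamini-Hochberg adjustment and a threshold of 0.05. Fold changes on this scale understate the change of low genes. Limma was tested on simulated data. Single values were compared by exact permutation over samples. Gene positions are from GENCODE M21 (GRCm38). Members sharing at least 5% of their 75-base stretches with another gene (10 of 49) are uncertain: Cycs, Cox7c, Uqcrc2, Atp5h, Cox5b, Atp5j, Cox7a2l, Cox4i1, Atp5g1 and Atp5g2.

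Deviations from group means of same-code samples correlated at 0.378 to 0.633 over 11065 genes, in every pair, so the codes were taken to pair the samples; the pairing comes from digits in the sample descriptions. Title replicate numbers gave -0.515 to 0.633. The named members were the isoform families, the Sdh genes, and the highest and lowest of each complex per comparison. Any member called in the unpaired test was to be added. Cox7a2l, Cox5a, Uqcrh, Uqcr11, Atp5o and Atp5b lay outside this rule and were described for their values. Alternatives were the pseudocount, the filter, the trend, the scaling (median of ratios or quantile), a joint fit of the 9 samples, a block for replicate number or code, and leaving out each replicate. The members and lists were chosen with earlier results of these data known.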

Additional observations from a re-analysis of the deposited data

How the results depend on the processing

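With no block and all codes in the fit, 0 members were called in every comparison under each pseudocount, filter, trend, scaling and leave-one-out alternative and with all 9 samples in 1 fit. No alternative called a member in acute hypoxia against standard oxygen. The cause of the changes below was not tested.

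For acute hypoxia against standard oxygen, genes called numbered 5 without the trend, 21 with rescaling, 23 with quantile normalization, 25 with all 9 samples in 1 fit, 0 with the replicate block, 78 with the code block, 54 with that block and rescaling, and 0 to 33 when 1 library was left out. The members' median was -0.046 to 0.029 with 1 library left out. For chronic hypoxia against standard oxygen, genes called numbered 120 without the filter, 166 without the trend, 770 with all 9 samples in 1 fit, 1 with the replicate block, 2039 with the code block, 1267 with that block and rescaling, and 1 to 522 with 1 library left out. The replicate block called 0 members there, the code block 1, and that block with rescaling 3. The members' median was -0.206 with rescaling, with or without the code block, and -0.162 with quantile normalization. For chronic against acute hypoxia, genes called numbered 7 without the filter, 25 without the trend, 44 with quantile normalization, 417 with all 9 samples in 1 fit, 1724 with the replicate block or the code block (the same pairs), 1086 with that block and rescaling, and 1 to 308 with 1 library left out. Each of these blocked fits called 2 members. The members' median was -0.169 with rescaling, with or without the block, and -0.131 with quantile normalization. The block changed no other call among the named members.

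Leaving out the code Z libraries, chosen after seeing the data, called 319, 2300 and 1788 genes in the same order, and 358, 1894 and 1317 with rescaling. It called 0, 3 and 4 members, and 0, 14 and 5 with rescaling, when the members' medians were -0.062, -0.252 and -0.219. In that rescaled fit Atp5j and Uqcrq, at 0.01 and 0.06 in chronic hypoxia against standard oxygen, turned to -0.253 and -0.243. Depth is unknown, so no limit from counting can be given.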

Other observations

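A pair of proteins of the ATP synthase carry symbols that the name rule does not reach and were looked up after the other values had been seen. Usmg5, a small membrane subunit, was at 726 ± 52.3, 717 ± 99.2 and 705 ± 96.0 TPM in standard oxygen, acute hypoxia and chronic hypoxia (SD, n = 3). Atpif1, the inhibitor of ATP hydrolysis by the enzyme, was at 390 ± 18.4, 394 ± 28.5 and 408 ± 108 TPM. Neither passed the test in any comparison (limma adjusted p from 0.861 to 1.00 for Usmg5 and from 0.929 to 1.00 for Atpif1).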
